A study of Solanum lycopersicum with 2 samples.

Results

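ACC oxidase genes of tomato were followed in single-cell RNA sequencing of the root. The 5 genes described here were taken from a list, looked up by identifier, and found among the 34716 features of both count tables. They are ACO1 (Solyc07g049530), ACO3 (Solyc07g049550) and ACO5 (Solyc07g026650) on chromosome 7, and ACO4 (Solyc02g081190) and ACO6 (Solyc02g036350) on chromosome 2. The chromosome is the one written in the identifier, and each of the 5 names is also a symbol on that chromosome in the RefSeq gene table. Counts, sums and shares over copies below are over these 5 genes. ACO1 and ACO3 have neighbouring identifiers and are close copies, and how reads matching both were counted is not known, so the split of UMIs between them is uncertain.

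ACC oxidase makes ethylene in the last step of its synthesis. S-adenosylmethionine (SAM), supplied by SAM synthetases, is first turned into ACC by ACC synthases, and ACC oxidase then converts ACC into the gas. Ethylene diffuses between cells and binds receptors that, in its absence, hold the response off through the kinase CTR1. EIN2 and the EIL transcription factors carry the signal when the receptors bind ethylene, and the F-box proteins EBF1 and EBF2 remove the EIL factors. In roots the hormone is known for restraining elongation, promoting root hairs and rising after wounding.

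Both libraries were made from wild-type M82 seedlings, a cultivated tomato line, at 7 days after sowing. The lowest 3 cm of 50 to 100 primary roots were pooled for each library and the cell walls were digested for 2 hours, so that every cell measured had been turned into a protoplast. There was no other treatment or genotype, and the comparisons made here were between cells and between copies, each repeated in replicate 1 and replicate 2. Droplet capture tagged the 3′ end of each transcript, and a UMI (unique molecular identifier) marked each captured molecule. Levels thus did not scale with gene length. How well the 3′ end of each gene was captured was not measured, which limits comparisons of level between genes. The labels give 2 replicates without saying whether they came from separate sowings. The p-values set differences among clusters against the spread of clusters between these 2 libraries, once the average difference between libraries was removed. They cover no other spread.

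Replicate 1 held 12481 barcodes and 187215851 UMIs, and replicate 2 held 10253 barcodes and 81175339 UMIs, a 2.31-fold difference in depth. After the limits on UMIs and organelle RNA, 12403 and 10231 cells were kept, with medians of 8068 and 3801 UMIs. The libraries shared 38 barcodes. Cells fell into 27 clusters, each with at least 10 cells in both libraries. Clusters were made without the ACC oxidase genes, the other ethylene genes and the genes that the study listed as induced by protoplasting. Cluster 19 is called exodermis-like (6 of 6 markers peaked there, a set chosen by the study on these libraries), cluster 14 endodermis-like (5 of 5), cluster 22 xylem-like (3 of 3) and cluster 9 dividing-like (3 of 3). No cluster gathered 3 markers of phloem, epidermis or stele, and all other clusters go by number.

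Of the 5 genes, only ACO5 is on the study's list of genes induced by protoplasting, and ranks in undigested roots were not tested. In these protoplasts ACO5 had the highest level of the 5. It stood at 77.0 CPM (counts scaled to a fixed library total of nuclear UMIs) in replicate 1 and 159 in replicate 2, a mean of 118 ± 58.2 (SD, n = 2). Its lower library still lay above the highest value of any other gene of the 5. Of the UMIs of the 5 genes (23856 and 23579), ACO5 held 60.4% in replicate 1 (95% exact binomial interval 59.8 to 61.0%) and 54.8% in replicate 2 (54.2 to 55.5%). These and the following intervals cover counting error only, and the difference between libraries was wider than they are.

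ACO1 and ACO4 came next, at lower and similar levels. ACO1 stood at 25.3 and 52.5 CPM (38.9 ± 19.2) and held 19.8% and 18.1% of the UMIs of the 5 genes. ACO4 stood at 18.5 and 63.2 CPM (40.8 ± 31.6) and held 14.5% and 21.7%. The spread between libraries exceeded the gap between these copies, so their order is not settled. ACO3 was lower in both libraries, at 6.41 and 14.4 CPM. ACO6 was close to absent, with 54 and 103 UMIs in total, or 0.289 and 1.27 CPM.

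The gap between libraries was smaller for all 5 genes when every cluster had equal weight. Cluster 11, which held more ACO4 UMIs than any other cluster in both libraries (34.5% and 32.6%), made up 2.47% of cells in replicate 1 and 6.20% in replicate 2. ACO4 was 3.41-fold higher in replicate 2 over all cells, and 1.70-fold higher when every cluster had equal weight. The same weighting took ACO3 from 2.24-fold to 1.13-fold. It took ACO1 from 2.07-fold to 1.89-fold, ACO5 from 2.07-fold to 1.72-fold and ACO6, with few UMIs, from 4.40-fold to 1.37-fold.

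**Figure D1:**
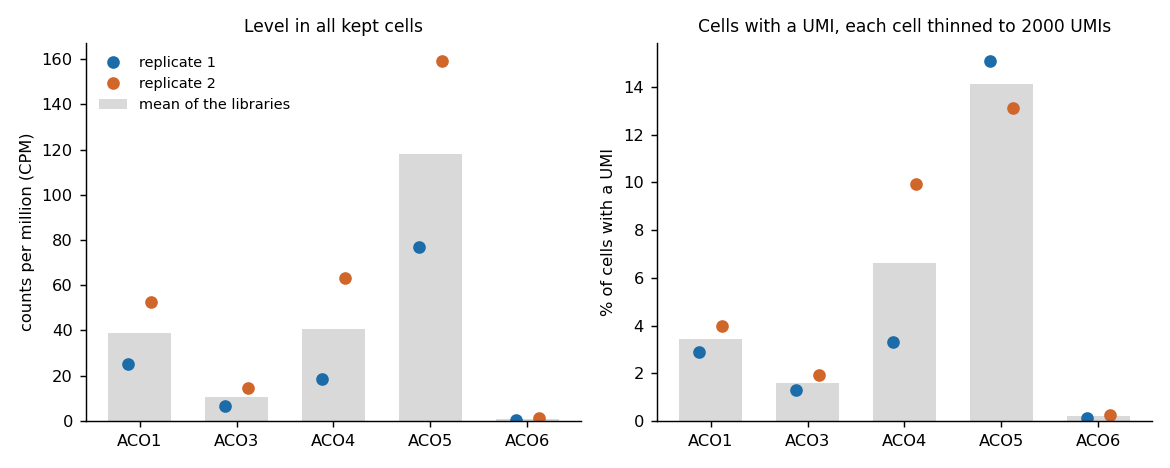
Level of each ACC oxidase copy in CPM over all kept cells (left) and percent of cells with at least 1 UMI after each cell was thinned to 2000 UMIs (right). Points are the 2 libraries and bars their mean. ACO5 stands above the other copies in both panels, and on the left ACO5 differs most between libraries in CPM, and ACO4 most as a fold among the copies with over 500 UMIs.

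The left panel of the plot of levels shows how far ACO5 and ACO4 moved between libraries. The right panel removes the difference in depth. Thinned to 2000 UMIs per cell, 15.1% of cells in replicate 1 and 13.1% in replicate 2 held an ACO5 UMI, where 29.4% and 18.8% did without thinning. ACO4 was found in 3.32% and 9.94% of thinned cells and ACO1 in 2.88% and 3.99%. ACO4 thus still differed between libraries after thinning. The thinned values rest on 10275 and 6990 cells, since 2128 and 3241 cells had fewer UMIs and were left out.

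The copies also differed in how many cells carried them. The 1% of cells with most ACO1 UMIs (125 cells in replicate 1 and 103 in replicate 2) held 75.8% and 71.5% of all ACO1 UMIs, and single cells reached 171 and 138 UMIs. ACO3 was as concentrated, with 76.8% and 77.8% of its UMIs in 1% of cells. For ACO5 the same share was 23.9% and 33.8%. ACO4 lay between, at 56.2% and 35.5%.

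The copies differed in the clusters where they were highest, although ACO3 and ACO5 were both high in cluster 2 and ACO6 had no single highest cluster. In 22 of the 27 clusters the same gene of the 5 led in both libraries: ACO5 in 12, ACO4 in 7 and ACO1 in 3. ACO3 and ACO6 led in none. ACO4 reached 50 CPM in both libraries in 7 clusters, ACO5 in 6, ACO1 in 4 and ACO3 in 1. ACO5 thus led in several clusters where its own level was low, such as cluster 12, where the 5 genes summed to 14.6 and 21.1 CPM. The profile over the 27 clusters repeated between libraries with a Pearson r of log2(CPM + 1) of 0.96 for ACO4, 0.84 for ACO5, 0.83 for ACO1, 0.79 for ACO6 and 0.65 for ACO3. These r values describe clusters built from both libraries together.

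ACO5 was highest in cluster 1 (466 and 1088 CPM) and cluster 2 (447 and 615 CPM). These neighbours overlapped, and so did cluster 2 and cluster 8 (154 and 497 CPM). Clusters 1 and 2 together held most ACO5 UMIs, 43.2% and 36.1% in cluster 1 and 25.9% and 30.8% in cluster 2. Of the 4 nutrient uptake genes used as epidermis markers, 2 peaked in cluster 2. The ammonium transporter gene AMT1;1 stood there at 706 and 819 CPM and the phosphate transporter gene PT1 at 264 and 475 CPM. In cluster 1 AMT1;1 stood at 113 and 194 CPM and PT1 at 100.6 and 220.1 CPM. The other markers of the epidermis list did not peak in cluster 2, so it was not named.

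ACO4 was highest in cluster 18, at 403 and 377 CPM, above both values of the next cluster. Cluster 11 (199 and 278 CPM) and cluster 13 (78.8 and 322 CPM) followed and overlapped. Clusters 10 (107 and 166 CPM) and 25 (93.8 and 168 CPM) came after them and overlapped as well. Of the 3 phloem markers, 2 peaked in cluster 25, SEO at 2773 and 9901 CPM and APL at 58.9 and 131 CPM. The other, SUT1, peaked in cluster 13 at 78.5 and 196 CPM, and neither cluster was named. SKOR, a potassium channel gene of the stele, was the marker gene that peaked in cluster 18, at 69.6 and 265 CPM. The other stele markers did not peak there, so cluster 18 was not named. SHR stood there at 9.67 and 8.94 CPM, below cluster 6 (13.9 and 16.4 CPM). HKT1;1 was at 0 and 3.15 CPM and HKT1;2 had no UMI. The lowest ACO4 mean was in cluster 15, at 2.76 and 2.03 CPM.

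ACO1 was the most restricted of the abundant copies. Cluster 21 stood at 631 CPM in replicate 1 and 1584 in replicate 2, and held 60.5% and 49.3% of all ACO1 UMIs in 2.05% and 1.15% of the cells. Although ACO1 was not used to build the clusters, no gene had a larger fold over the other clusters in cluster 21 than ACO1, which was 29.5-fold higher on mean CPM + 5. The exodermis-like cluster 19 (115 and 330 CPM) and cluster 10 (264 and 128 CPM) followed and overlapped each other. In cluster 26 ACO1 had 2.54 CPM in replicate 1 and no UMI in replicate 2. No marker list used here named cluster 21.

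ACO3 had a single high cluster. Cluster 2, where ACO5 was also high, stood at 83.8 and 124 CPM and held 58.3% and 68.9% of ACO3 UMIs. Cluster 1 followed with 18.7 and 36.8 CPM, and it overlapped cluster 26 (41.9 and 8.39 CPM). ACO6 did not exceed 19.8 CPM in any cluster of either library, and its first 4 clusters (16, 18, 10 and 27) overlapped in turn.

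**Figure D2:**
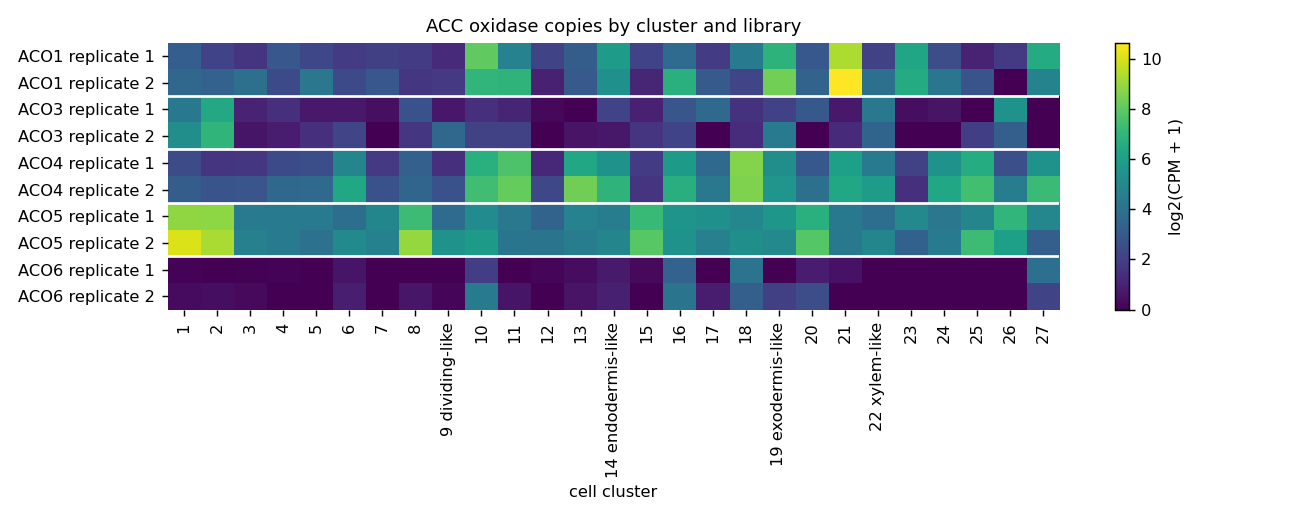
Heatmap of log2(CPM + 1) of the 5 genes, with 1 row per copy and library and 1 column per cell cluster. ACO1 is brightest in cluster 21, ACO3 in cluster 2, ACO4 in cluster 18 and ACO5 in cluster 1 in both libraries, and ACO6 is dark nearly everywhere.

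The heatmap of copies by cluster shows the highest cluster of ACO1, ACO3, ACO4 and ACO5 at the same place in both libraries. Shares of cells with a UMI, each cell thinned to 2000 UMIs, gave the same places. They reached 42.4% and 60.9% for ACO1 in cluster 21, 7.94% and 12.4% for ACO3 in cluster 2, 31.9% and 36.2% for ACO4 in cluster 18, and 45.9% and 61.4% for ACO5 in cluster 1. The lowest clusters were at 0% for ACO1 and ACO3, at 0.414% and 0% for ACO4, and at 2.34% and 1.09% for ACO5. Some of these minima rest on small clusters, such as cluster 24 with 85 thinned cells for ACO1 in replicate 1. They do not measure what free RNA can add.

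All 5 genes differed among clusters by edgeR's quasi-likelihood test on UMIs summed per library and cluster, with adjusted p-values from 4.88e-20 (ACO4) to 1.06e-07 (ACO6). That carries little about these genes, because 97.0% of the 16746 genes tested were called in the same test of clusters that were themselves drawn from expression. ACO6 passed the filter on low counts with few UMIs, and nothing further is read from its call. The range from the lowest to the highest cluster of the log2(CPM + 1) profile averaged over libraries was 9.05 for ACO1, 6.86 for ACO4, 6.69 for ACO3, 5.73 for ACO5 and 3.72 for ACO6.

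The clusters named by markers allowed a test that the ACO levels had not chosen. Each was set against the unweighted mean of the other 26 clusters in the same fit. In the endodermis-like cluster 2 of the 5 genes were higher and none lower, where 16.6% of all genes were called higher and 5.08% lower (2787 and 850 genes, or 2448 and 1283 by DESeq2). ACO4 stood at 42.5 and 120.2 CPM there, against medians of 10.1 and 19.6 over the other clusters. Its log2 fold change was 1.77 ± 0.22 (SE), with an adjusted p of 4.92e-08 by edgeR's quasi-likelihood test. ACO1 stood at 56.5 and 40.0 CPM against 4.30 and 9.21, a log2 fold change of 1.95 ± 0.45 (edgeR adjusted p = 0.00113). ACO5 gave -0.97 ± 0.41 and did not pass (edgeR adjusted p = 0.0941), although it passed as lower in 5 of the alternative clusterings or cell filters.

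ACO1 was the copy that stood out in the exodermis-like cluster. There 2 of the 5 genes were higher and none lower, beside 14.6% and 10.7% of all genes. ACO1 was at 115 and 330 CPM against medians of 4.30 and 9.21, a log2 fold change of 3.91 ± 0.42 (edgeR adjusted p = 1.75e-09). ACO3 was at 3.33 and 20.0 CPM, on only 2 and 20 UMIs, against 1.09 and 1.67. Its log2 fold change was 2.44 ± 0.87 (edgeR adjusted p = 0.0347). The ACO3 call was lost under 5 of the alternatives, with edgeR adjusted p-values of 0.0764 to 0.128. ACO4 gave 0.67 ± 0.33 and did not pass (edgeR adjusted p = 0.139), although it passed under 6 of the alternatives (0.00977 to 0.0408, the latter by DESeq2). The cells of cluster 19 were shallow, with a median depth of 0.260 and 0.397 of that of all kept cells in their library. With DESeq2's size factors the calls over all genes split differently in this cluster, 2921 higher and 940 lower in place of 2437 and 1789, and over all genes the median went from -0.09 to 0.10 on the log2 scale. ACO1 was called under both.

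In the xylem-like cluster 1 of the 5 genes was higher and none lower, beside 14.4% and 11.8% of all genes. ACO3 was at 18.1 and 9.90 CPM against medians of 1.09 and 1.67, a log2 fold change of 2.96 ± 0.66 (edgeR adjusted p = 7.07e-04). ACO5 gave -1.23 ± 0.48 (edgeR adjusted p = 0.0528) and ACO4 0.68 ± 0.28 (0.0755), which did not pass. Each of them passed under 7 of the alternatives, with edgeR or DESeq2 adjusted p-values of 0.00414 to 0.0459 for ACO5 and edgeR values of 0.00381 to 0.0375 for ACO4. ACO6 had no UMI in this cluster in either library, which allows up to 1.36 and 2.70 CPM.

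In the dividing-like cluster, whose cells were deep (a median of 3.15 and 2.79 times that of their library), 2 of the 5 genes were lower and 1 higher, beside 17.7% of all genes lower and 34.8% higher. DESeq2 called 4874 genes higher and 4523 lower there, in place of 5832 and 2969. Over all genes the median log2 difference was 0.15, and -0.03 with DESeq2's size factors. ACO4 was at 1.71 and 5.44 CPM against medians of 15.7 and 33.0, a log2 fold change of -2.30 ± 0.34 (edgeR adjusted p = 3.89e-07). ACO1 was at 1.42 and 2.43 CPM against 5.55 and 10.0, a log2 fold change of -2.30 ± 0.70 (edgeR adjusted p = 0.00587). The higher copy was ACO3, at 0.616 CPM in replicate 1 and 11.2 in replicate 2 against medians of 1.41 and 1.67. In replicate 2 it had 78 UMIs, found in 1.10% of the cluster's 365 cells. Its log2 fold change of 1.75 ± 0.58 (edgeR adjusted p = 0.0114) thus rested on few cells of replicate 2. It turned sign under 2 alternatives and lost the call at 0.78 (edgeR adjusted p = 0.229) with the ACC oxidase and ethylene genes as clustering features.

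Most of the cells with a UMI of the 5 genes held a single one of them. Such a UMI was found in 40.2% of cells of replicate 1 and 38.0% of cells of replicate 2, and 84.0% and 83.9% of those cells held 1 gene only. After thinning to 2000 UMIs the shares were 21.1% and 26.6%, and 92.6% and 90.2% of positive cells held 1 gene. Detection sets a limit to these shares, because a second copy at a low level is easily missed. Each gene was found in at most 29.4% of cells of a library, so mostly single-gene cells would also arise if copies were detected independently. No such expected share was computed, and these shares do not show that copies avoid each other. Among cells with at least 5 UMIs of these genes (1296 and 1170 cells), the leading gene held over 90% of them in 77.4% and 77.6% of cells. The leading gene of those cells was ACO5 in 877 and 629 cells, ACO1 in 187 and 191, ACO4 in 159 and 287, ACO3 in 70 and 61, and ACO6 in 3 and 2.

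Before cluster makeup was matched, 2 pairs of copies stood out for shared cells. In thinned cells, 2 of the 6 pairs among ACO1, ACO3, ACO4 and ACO5 were found together more often than in cells lacking the first copy in both libraries: ACO1 with ACO4, and ACO3 with ACO5. The same 2 pairs stood above the level of other cells in unthinned cells. ACO5 lay below the level of other cells in thinned ACO1 and ACO4 cells of both libraries. The pairs of ACO3 with ACO1 and with ACO4 rested on at most 5 thinned cells in a library, and no direction is given for them. With the other cells weighted to the same cluster makeup, the pairs above them in both libraries were ACO3 with ACO5 and, on 3 and 4 cells, ACO1 with ACO3. ACO6 was left out of these counts, since only 32 and 80 cells held it.

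ACO3 and ACO5 shared cells most. Of 134 thinned cells with ACO3 in replicate 1, 70 held ACO5, a share of 52.2% (43.4 to 60.9%) against 14.6% (13.9 to 15.3%) of the other cells. In replicate 2, 78 of 134 did, 58.2% (49.4 to 66.7%) against 12.3% (11.5 to 13.1%). Both copies were high in cluster 2, so the cells without ACO3 were also weighted to the cluster makeup of those with it, and then stood at 33.5% and 33.7%. The intervals of the ACO3 cells lay above those values in both libraries. Within cluster 2 alone, 51.4% and 61.8% of ACO3 cells held ACO5, against 40.3% and 37.7% of the rest. These shares rest on 36 and 55 cells with both copies, and no interval was computed for them.

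For ACO1 and ACO4 the excess over other cells differed between libraries once cluster makeup was matched. ACO4 was found in 11.1% (7.80 to 15.3%) of thinned ACO1 cells of replicate 1, or 33 of 296, against 3.09% of other cells and 5.47% after weighting them to the cluster makeup of the ACO1 cells. In replicate 2 it was found in 16.8% (12.6 to 21.8%), or 47 of 279, against 9.66% of other cells and a weighted 18.3%. The interval of replicate 1 lay above the weighted value, and that of replicate 2 held it. Thinned to 1000 UMIs the share in replicate 1 was 5.94% (3.20 to 9.94%) against a weighted 5.50%, so its excess was lost at that depth. In cluster 21, where ACO1 was highest, 18.9% and 15.7% of ACO1 cells held ACO4, against 4.17% and 20.0% of the cells without ACO1.

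**Figure D3:**
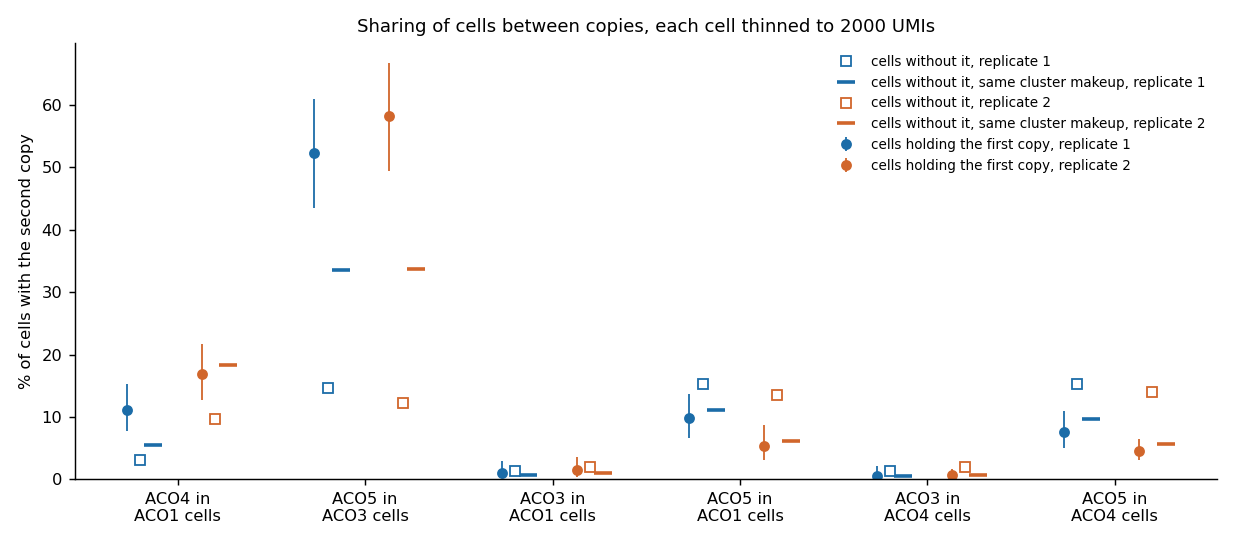
Percent of cells holding the second copy among cells with the first copy (filled points, with 95% exact binomial intervals), among cells without it (open squares) and among cells without it weighted to the same cluster makeup (short dashes), per library, with each cell thinned to 2000 UMIs. ACO5 in ACO3 cells stands above both comparisons, at 52.2% and 58.2%, while ACO5 in ACO1 and ACO4 cells lies below the open squares.

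The plot of sharing also shows ACO5 below the level of other cells in ACO1 and ACO4 cells. ACO5 was found in 9.80% and 5.38% of ACO1 cells against 15.3% and 13.5% of other cells, and in 7.62% and 4.604% of ACO4 cells against 15.4% and 14.1%. Weighted to the same cluster makeup the other cells stood at 11.2% and 6.16% for ACO1, and at 9.62% and 5.62% for ACO4, inside the intervals of the cells holding those copies. ACO3 shared few cells with ACO1 (3 and 4 cells) or with ACO4 (2 and 5 cells). Doublets were not removed. Leaving out the 5% of cells with most UMIs kept the count at 2 pairs.

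ACO5 itself is on the list of genes that the study found induced by protoplasting. ACO1, ACO3, ACO4 and ACO6 are not on it. The other 820 genes on that list took 11.6% and 15.2% of UMIs in cluster 1 and 19.6% and 21.6% in cluster 2, the clusters where ACO5 was highest. Across the 27 clusters the share of UMIs from those genes went with ACO5 at a Pearson r of 0.81 in replicate 1 and 0.58 in replicate 2, and with ACO3 at 0.68 and 0.70. For ACO1 the values were -0.0659 and -0.00183, and for ACO4 -0.38 and -0.35. These clusters share libraries and are not independent points. Whether the digestion raised ACO5 in these cells was not tested, since no undigested cells were in these libraries.

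**Figure D4:**
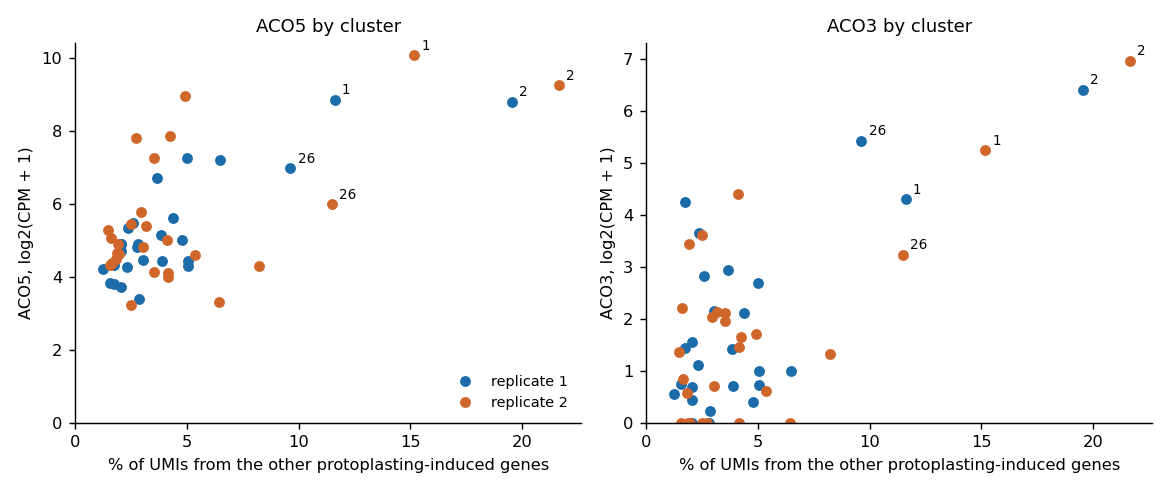
Level of ACO5 (left) and ACO3 (right) as log2(CPM + 1) against the percent of UMIs from the other protoplasting-induced genes, with 1 point per cluster and library and clusters 1, 2 and 26 numbered. Clusters 1 and 2, at 11.6% to 21.6% of UMIs, hold the highest ACO5 values in each library. Cluster 8 of replicate 2 reaches 497 CPM of ACO5 at 4.92%.

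The plot against the protoplasting share also shows clusters where ACO5 was above 100 CPM at a smaller share than in clusters 1, 2 and 26. Cluster 15 stood at 146 and 232 CPM with 6.47% and 4.26% of UMIs from the listed genes, and cluster 20 at 105.2 and 224 CPM with 3.68% and 2.73%. Cluster 26 had a larger share, 9.63% and 11.5%, and less ACO5 than cluster 15, 126 and 62.9 CPM.

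Among 7078 genes with at least 50 CPM in a cluster of each library, the genes closest to each copy were picked by the lower of the r values of log2(CPM + 1) over the 27 clusters. The files do not pair these identifiers with names. The closest to ACO5 were Solyc10g052600 (r of 0.95 and 0.93), Solyc11g069280 (0.96 and 0.92) and Solyc03g093070 (0.92 and 0.91), and all 3 of them are on the protoplasting list.

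For ACO1 they were Solyc05g006220 (0.93 and 0.93), Solyc08g068630 (0.94 and 0.91) and Solyc02g071130 (0.93 and 0.85), the last of which, like Solyc08g068630, is also on that list. For ACO4 they were Solyc08g006110 (0.88 and 0.87), Solyc09g083400 (0.85 and 0.86) and Solyc06g053630 (0.88 and 0.85). ACO3 had weaker partners, Solyc12g011420 (0.83 and 0.80), Solyc09g074850 (0.81 and 0.79) and Solyc05g051920 (0.79 and 0.79), which peaked in cluster 2 in both libraries. ACO6 had too few UMIs for this search. None of the 5 genes was among the 3 closest to another of them. The nearest pair among them, ACO3 and ACO5, stood at 0.68 and 0.59.

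The other genes of the pathway were read from a list of 29, of which 27 were in the files. Their names were taken from general knowledge, and for 25 of the 29 the name is a RefSeq symbol on the chromosome of the identifier. SAM3 was the most abundant SAM synthetase, at 2246 and 2068 CPM over all cells. The ACC synthases were far lower: ACS1A stood at 14.8 and 65.7 CPM, ACS3 at 15.7 and 53.7, ACS8 at 15.3 and 20.4, and ACS2 at 7.47 and 21.8, while ACS4 had 1 UMI in each library and ACS7 none. ACS2, ACS3 and ACS8 are on the protoplasting list. The most abundant receptor gene was Solyc09g075440, listed as NR, at 27.2 and 25.6 CPM, and the most abundant signalling gene was Solyc07g008250, listed as EBF2, at 68.5 and 77.4 CPM. Those 2 names could not be matched to a RefSeq symbol on the same chromosome.

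By mean level, ACS2 was highest in cluster 21 (94.7 and 282 CPM), as ACO1 was, and ACS8 in cluster 2 (88.4 and 85.0 CPM), as ACO3 was. ACS3 was highest in the endodermis-like cluster (160.2 and 339.6 CPM) and ACS1A in cluster 11 (131 and 344 CPM), where none of the 5 oxidase genes had its highest mean. Summed over the 5 genes, ACC oxidase ranged from 14.6 to 714 CPM over clusters in replicate 1, with a median of 124, and from 21.1 to 1688 in replicate 2, with a median of 189. Summed ACC synthases ranged from 4.36 to 335 and from 7.02 to 779 CPM. Cluster 21 had the highest sum of the 5 genes in both libraries and 206 and 619.6 CPM of synthase. Cluster 1, led by ACO5, had 498 and 1143 CPM of these oxidases, with 29.4 and 35.9 CPM of synthase. Across the 27 clusters the log2 sums went together at an r of 0.48 in replicate 1 and 0.28 in replicate 2.

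**Figure D5:**
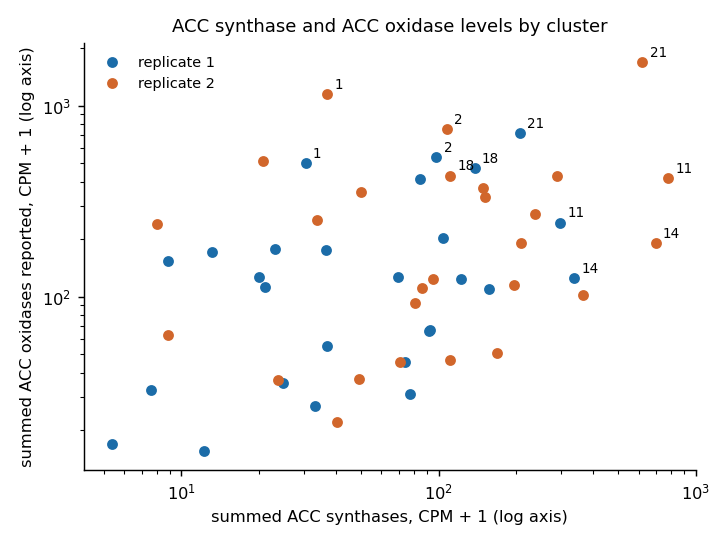
Summed level of the 5 ACC oxidase genes against the summed ACC synthases, both as CPM + 1 on log axes, with 1 point per cluster and library and 6 clusters numbered. Cluster 21 is high on both axes, cluster 1 is high in oxidase with at most 35.9 CPM of synthase, and clusters 11 and 14 hold the most synthase.

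The plot of synthases and oxidases places the ACO5-led cluster 1 above clusters 11 and 14 in oxidase and below cluster 21, and to the left of all of them in synthase. Of single pairs, ACO4 and ACS1A had r values of 0.75 and 0.69 over clusters, and ACO5 and ACS1A -0.27 and -0.51. ACO4 also went with ACS2 (0.64 and 0.56) and ACS3 (0.65 and 0.53). ACO1 went with ACS2 (0.56 and 0.77), ACS1A (0.57 and 0.71) and ACS3 (0.47 and 0.74). With ACS8, ACO4 stood at -0.38 and -0.49 and ACO1 at -0.05 and 0.01. ACO3 and ACS8, both highest in cluster 2, stood at 0.39 and 0.10.

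In the same fit, 24 of the list's genes passed the filter on low counts. In the endodermis-like cluster 5 were higher and 1 lower, beside 16.6% and 5.08% of all genes, with a list median log2 fold change of -0.11 beside 0.02 for all genes. The 3 largest changes were ACC synthases. ACS3 gave 3.78 ± 0.23 (SE), ACS2 3.43 ± 0.31 and ACS1A 3.26 ± 0.24, with edgeR adjusted p-values of 4.31e-16, 3.27e-11 and 8.41e-14. ACS1A stood there at 111 and 321 CPM against medians of 8.68 and 29.9 over the other clusters. EIL3 was also higher, by 0.79 ± 0.19 (edgeR adjusted p = 0.00205), a call lost without scaling within the library (0.0746).

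In the exodermis-like cluster 2 of the 24 were higher and 3 lower, beside 14.6% and 10.7% of all genes (list median -0.14, all genes -0.09). ACS1A gave 2.14 ± 0.33 (edgeR adjusted p = 3.58e-06) and ACS3 1.48 ± 0.38 (0.00291). EBF1 fell by 1.43 ± 0.28 (1.81e-04), a call lost at the coarser clustering (0.182). The receptor gene ETR4 gave -1.09 ± 0.27 (0.00462), lost the call under 3 of 7 alternatives (0.0679 to 0.0931) and turned to 0.06 at the coarser clustering.

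In the xylem-like cluster 3 of the 24 were higher and 6 lower, beside 14.4% and 11.8% of all genes (list median -0.31, all genes -0.10). ACS2 was higher by 2.78 ± 0.40 (edgeR adjusted p = 1.03e-06). ACS8 gave -1.90 ± 0.60 (0.0164), Solyc07g008250 -1.33 ± 0.34 (0.00282) and the receptor gene ETR5 -1.09 ± 0.32 (0.00946), the latter lost without the library block (0.0579).

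In the dividing-like cluster 3 of the 24 were higher and 8 lower, beside 34.8% and 17.7% of all genes (list median -0.29, all genes 0.15). ACS2 gave -4.33 ± 0.80 (edgeR adjusted p = 2.23e-05), ACS1A -2.85 ± 0.46 (2.27e-06), ACS3 -2.58 ± 0.46 (1.06e-05) and EIL3 -1.75 ± 0.25 (1.76e-07). Thus 3 ACC synthases and 2 of the 5 ACC oxidases were lower there, with ACS1A at 1.19 and 3.44 CPM beside medians of 11.6 and 48.7 in the other clusters.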

How the data were processed

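The deposited files hold raw UMI counts per gene and cell barcode for each library, made by the authors with Cell Ranger 6.0.1 against the SL4.0 genome with ITAG4.1 genes and organelle sequences. Barcodes had been called as cells before deposit. Cells with at least 500 UMIs and at most 1% organelle UMIs were kept. No doublet caller was run. Genes were log-normalised, centred and scaled within each library (2000 variable genes, 35 principal components, 20 neighbours, Leiden resolution 1, leidenalg 0.10.2). The scaling was chosen after the data were seen, because centring alone left clusters of 1 library. The members and gene lists were chosen with earlier results of these data known. Clusters took a name from at least 3 markers peaking in them.

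UMIs were summed per library and cluster and tested with edgeR 4.0.16 (TMM, filterByExpr, library as block, Benjamini-Hochberg over all genes, threshold 0.05, R 4.3.3), with DESeq2 1.42.0 as an alternative. The script was tested on simulated data. CPM leaves out organelle UMIs, and log2 values carry a pseudocount of 1. Genes on the protoplasting list, which the study removed, stayed in counts and totals. The library is the block because every cluster holds cells of both libraries. Alternatives changed the clustering, cell filters, normalisation, test, block and thinning. Genes named in the text are the ACC oxidase genes, 3 genes of closest profile per copy, the most abundant gene of each pathway class and up to 4 of the largest called changes per named cluster. Depths were 187215851 and 81175339 UMIs. A listed item is not reported here.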

Additional observations from a re-analysis of the deposited data

How the results depend on the processing

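All 5 genes differed among clusters under each alternative, or 4 of 4 with the protoplasting-induced genes, ACO5 among them, left out. Of the 20 tests of a copy in a named cluster 8 were called, and 8 to 12 under the alternatives. Without the library as replicate block 5 genes still differed among clusters and 8 of the 20 tests were called, and 23 of the 96 tests of ethylene genes in place of 31. Calls that held in all settings tested were ACO1 in the exodermis-like cluster, ACO1 and ACO4 in the endodermis-like cluster, ACO3 in the xylem-like cluster, and ACO1 and ACO4 in the dividing-like cluster. ACO3 in the dividing-like cluster turned to -0.26 with the protoplasting-induced genes as clustering features (edgeR adjusted p = 0.890) and to -1.93 without scaling within the library (1.00), an alternative added after the data were seen. ETR4 in the exodermis-like cluster turned to 0.061 at resolution 0.5 (edgeR adjusted p = 0.867). The causes were not tested.

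Weighted to cluster makeup, 6 of the 6 pairs of copies shared cells above the other cells in both libraries before thinning, 2 after thinning to 2000 UMIs (ACO3 with ACO5, and ACO1 with ACO3 on 3 and 4 cells, but not ACO1 with ACO4), 3 after thinning to 1000, and 3 where a cell needed 2 UMIs to count as positive. By construction thinning removes the differences in depth between cells. Of the UMIs of the 5 genes, the share of ACO1, 18.95%, became 16.3% after thinning to 2000 UMIs, and that of ACO3, 4.99%, became 6.25%. Leaving out each library gave shares of 18.1% to 19.8% for ACO1, 4.95% to 5.03% for ACO3, 14.5% to 21.7% for ACO4, 54.8% to 60.4% for ACO5 and 0.226% to 0.437% for ACO6. No cluster could be named dividing-like without replicate 2. ACO6 had 54 and 103 UMIs in all, which limits its values in single clusters.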
